A study of Oryza sativa Indica Group with 10 samples.

Results

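The glyoxylate cycle genes described here are ICL (LOC4343441), which encodes isocitrate lyase, MS (LOC9268154), which encodes malate synthase, and Aconitase (LOC9270306), which encodes an aconitate hydratase. They are 3 of the 17905 rice genes that have a probe set of their own on the array. Each was measured by 1 probe set, so none has a second probe set to set beside it. All 3 passed into the test, because no filter on low values was applied. The members were chosen from measured values, since ICL had been seen among the largest rises of lethal knock-down seedlings. Both comparisons that involve those seedlings are therefore described without a test for the 3 genes.

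The glyoxylate cycle lets plant tissue turn the acetyl-CoA released from stored or membrane fatty acids into organic acids and sugar. Isocitrate lyase splits isocitrate into succinate and glyoxylate, and malate synthase joins glyoxylate to acetyl-CoA to give malate, so the carbon bypasses the steps of the citric acid cycle that release carbon dioxide. Aconitase makes the isocitrate from citrate and serves the citric acid cycle as well. In plants the cycle is best known from seedlings that live on their oil reserves before they photosynthesize, and ICL and MS transcripts are also known from senescing and sugar-starved leaves.

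The study hybridized RNA from Pusa Basmati 1 seedlings, an Indica cultivar grown in light, to Affymetrix rice arrays, 10 in all, in 5 groups of 2 biological replicates. The groups were knock-down seedlings of OsbZIP48 with a lethal phenotype (KD lethal), knock-down seedlings with the phenotype of wild type (KD wild-type-like), vector control seedlings carrying pANDA, an RNA interference vector, seedlings over-expressing OsbZIP48 (OE), and vector control seedlings carrying B4NU. The product of OsbZIP48 is a transcription factor of the bZIP family. The 2 knock-down groups were told apart by phenotype, so the phenotype and the extent of the knock-down cannot be told apart, and the labels give neither the lines nor the promoters of the transgenes. The age is 10 days by the sample labels, where the design text gives 7 days, and whole seedlings as the tissue where the extraction protocol names roots. The name OsbZIP48 matched no gene of the name tables used, so its level was not analysed here.

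Values are log2 probe set signals as deposited, on which a step of 1 is a 2-fold difference. The arrays were taken as normalized in 2 sets, because exactly equal values were shared within the sets and not between them. The labels do not state it. KD lethal, KD wild-type-like and pANDA form the first set and OE and B4NU the second. Levels set across the sets carry that difference too. The lowest value of an array was 2.44 in both sets, and a group with both arrays within 0.5 of it is called at the floor. Replicates correlated across probe sets at r = 0.981 in KD lethal, 0.993 in KD wild-type-like, 0.997 in pANDA, 0.95 in OE and 0.998 in B4NU (probe sets are not independent replicates). Averaged over GAPDH, cyclophilin and ubiquitin, the signal at the 3' end minus that at the 5' end, a measure of RNA integrity, was 1.00 on the array of KD lethal replicate 2 and 0.24 on that of OE replicate 1, and 1.53 to 2.44 on the others. These 2 arrays stand apart from the rest, and results are given without them where that matters.

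The tissue label was checked against markers. The leaf gene RBCS, the small subunit of Rubisco, averaged 8.37 in KD lethal, 12.62 in KD wild-type-like, 12.49 in pANDA, 12.07 in OE and 12.76 in B4NU, and the root silicon transporter gene Lsi1 averaged 4.69, 9.90, 9.72, 7.84 and 9.39 in the same groups. In KD lethal, NAS1, NAS2 and IRT1 of the 5 root genes were at the floor and Lsi2 had 2.58 and 3.78. Of the 5 root genes, only Lsi1 was thus above the floor on both KD lethal arrays. Its level there was 32.7-fold below that in pANDA. The root genes therefore gave little signal in KD lethal and do not settle the tissue label of that group. IRT1 was also at the floor in KD wild-type-like, pANDA and B4NU. Of 5 seed storage genes, GLUA1 and GLUB4 were at the floor in all 5 groups, and PROLAMIN in every group except OE. GLB1 was well above the floor on every array, from 5.27 (KD lethal replicate 2) to 6.52 (B4NU replicate 2). GLUA2 was at the floor in no group and ran from 2.95 (OE replicate 1) to 4.86 (B4NU replicate 1). Signal from seed genes was thus not absent.

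ICL was high in KD lethal seedlings and lowest in pANDA seedlings. Its log2 signal was 8.73 and 9.93 on the KD lethal arrays, 4.92 and 4.80 on the KD wild-type-like arrays, 3.21 and 3.31 on the pANDA arrays, 5.79 and 5.11 on the OE arrays, and 5.36 and 5.63 on the B4NU arrays. The lowest KD lethal array lay 2.94 above the highest of the other 8 arrays. Those 8 arrays spanned 2.59 among themselves. The pANDA arrays lay 0.77 and 0.87 above the lowest value of their set, outside the floor but near it. From high to low the group means ran KD lethal, B4NU, OE, KD wild-type-like and pANDA, and of these neighbours B4NU and OE were the pair whose arrays overlapped. The replicates of KD lethal were 1.20 apart and those of OE 0.68, against 0.10 to 0.27 in the other groups, and the higher array of each of these pairs was the one with the low 3' excess.

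MS gave the same picture with a narrower range and closer replicates. Its log2 signal was 9.40 and 9.57 on the KD lethal arrays, 6.94 and 6.93 in KD wild-type-like, 5.94 and 6.09 in pANDA, 6.99 and 7.16 in OE, and 7.05 and 7.07 in B4NU. KD lethal again stood alone at the top, 2.24 above the highest other array, and pANDA alone at the bottom. The remaining 3 groups lay between 6.93 and 7.16, and the arrays of OE enclosed those of B4NU. The order of the means was KD lethal, OE, B4NU, KD wild-type-like and pANDA.

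Aconitase varied least. Its log2 signal was 7.99 and 8.24 on the KD lethal arrays, 6.07 and 6.16 in KD wild-type-like, 6.32 and 6.35 in pANDA, 6.84 and 7.18 in OE, and 6.64 and 6.82 in B4NU. KD lethal was highest, by 0.82 over the next array. Unlike ICL and MS, Aconitase had its lowest mean in KD wild-type-like rather than in pANDA. OE lay above B4NU by only 0.02 between the nearest arrays.

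**Figure D1:**
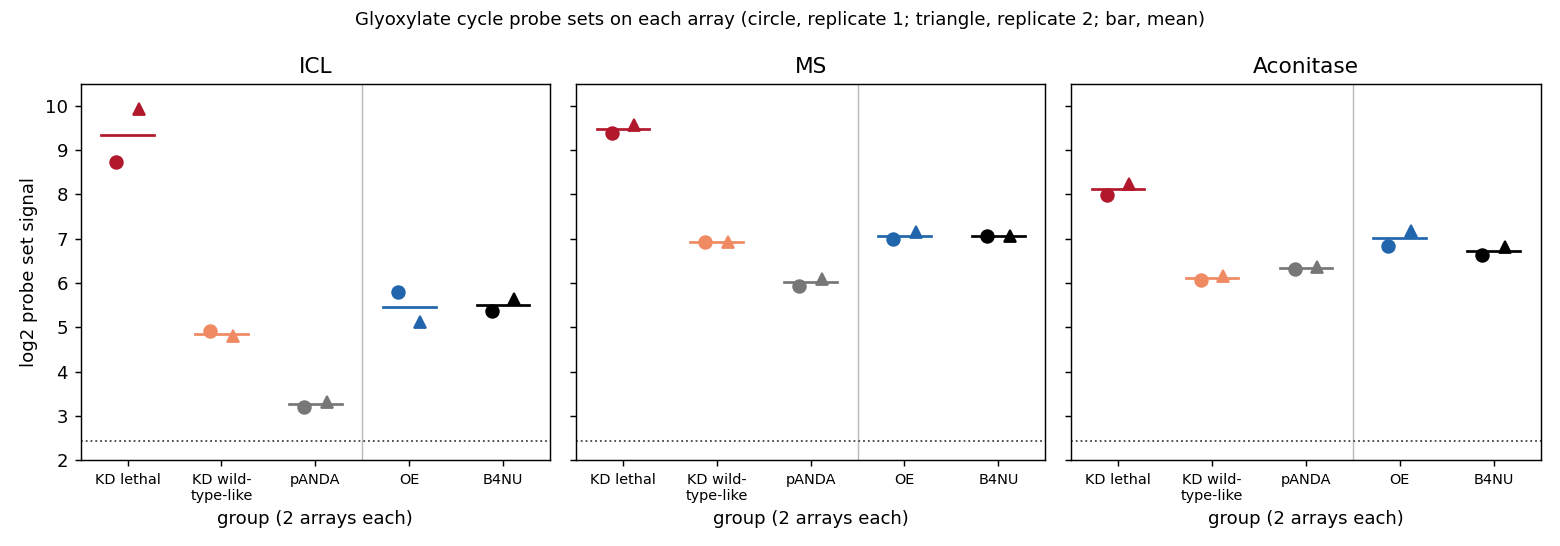
Log2 probe set signal of ICL, MS and Aconitase on each of the 10 arrays, by group (circle, replicate 1; triangle, replicate 2; bar, mean of 2; dotted line, the lowest value of an array; the grey vertical line parts the 2 normalization sets). In each panel both KD lethal arrays lie above the other 8, and the ICL panel has its lowest values in pANDA, at 3.21 and 3.31.

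Across the 10 arrays the log2 signals of ICL and MS correlated at r = 0.984, those of ICL and Aconitase at 0.907 and those of MS and Aconitase at 0.909. Over the 6 arrays of the first set alone the values were 0.995, 0.936 and 0.935. These coefficients describe 5 groups rather than independent samples, and the 2 KD lethal arrays carry most of the range.

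KD lethal against pANDA is the comparison from which ICL was picked. ICL averaged 9.33 ± 0.85 in KD lethal and 3.26 ± 0.07 in pANDA (SD, n = 2 each), a log2 difference of 6.07 ± 0.43 (SE) or 67.2-fold, and 14 of the 57258 probe sets had a larger rise. MS averaged 9.48 ± 0.12 in KD lethal and 6.01 ± 0.11 in pANDA, a difference of 3.47 ± 0.09 or 11.1-fold. Aconitase averaged 8.12 ± 0.17 in KD lethal and 6.33 ± 0.03 in pANDA, a difference of 1.78 ± 0.14 or 3.44-fold. The differences thus ranked ICL, MS, Aconitase. In all 3 the groups did not overlap with KD lethal higher, which held for 20.4% of all probe sets, and nothing is read from that count here because the genes were chosen on it.

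The size of these differences depended on the vector. With B4NU in place of pANDA, which crosses the normalization sets, the KD lethal differences were 3.83 for ICL, 2.42 for MS and 1.39 for Aconitase. Against KD wild-type-like seedlings, which share the normalization set and the knock-down label, KD lethal was higher by 4.47 ± 0.43 in ICL, 2.55 ± 0.09 in MS and 2.00 ± 0.14 in Aconitase, or 22.2-fold, 5.86-fold and 4.0-fold. Here too KD lethal arrays did not overlap the others, as in 20.3% of all probe sets. Without either KD lethal array the ICL difference from pANDA was 5.47 or 6.67.

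The tissue markers also differed between the groups. The summed linear signal of 4 leaf genes (RBCS, RBCS1, CAB2R and RCA, with RBCS1 at the floor in every group) was 1850 to 2540 in KD lethal, 14700 to 16500 in KD wild-type-like, 14400 to 14900 in pANDA, 9010 to 12400 in OE and 15300 to 15700 in B4NU. That of 5 root genes (Lsi1, Lsi2, NAS1, NAS2 and IRT1) was 52.9 to 54.6 in KD lethal, with NAS1 and NAS2 at the floor. It was 1700 to 1790 in KD wild-type-like, 1960 on both pANDA arrays, 1020 to 1910 in OE and 1590 to 1690 in B4NU. IRT1 was at the floor in every group except OE. That of the 5 seed genes was 67.5 to 75.8 in KD lethal, 119 to 126 in KD wild-type-like, 118 to 125 in pANDA, 89.1 to 127 in OE and 137 on both B4NU arrays. Against pANDA, limma called 3 of the 4 leaf genes and 4 of the 5 root genes lower in KD lethal, beside 5.4% of all probe sets. It called 0 of the 5 seed genes, of which GLUA1, GLUB4 and PROLAMIN were at the floor in KD lethal. The leaf, root and seed sums were all lowest in KD lethal, where ICL was highest. Their part in the ICL, MS and Aconitase differences was not tested, and in whole seedlings fewer cells of a type and less RNA per cell cannot be told apart.

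KD wild-type-like against pANDA sets knock-down seedlings without the lethal phenotype beside the vector taken here as their control. MS rose by 0.92 ± 0.09 (log2, SE; 95% interval 0.70 to 1.14), or 1.89-fold, at limma's adjusted p = 0.0356, and was higher on both KD wild-type-like arrays than on either pANDA array. ICL had a difference of 1.60 ± 0.43 (interval 0.53 to 2.67), or 3.03-fold, with arrays that did not overlap, and did not pass limma's test (adjusted p = 0.531). Aconitase had a difference of -0.22 ± 0.14 (interval -0.57 to 0.13; adjusted p = 0.978), with both KD wild-type-like arrays below both pANDA arrays, as in 14.7% of all probe sets. Of all probe sets, 0.243% were called in this comparison and 0.0978% were called higher, and 11.5% had KD wild-type-like arrays above the pANDA arrays without overlap.

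This MS call was fragile and rests on the pANDA arrays, which also entered the comparison on which the genes were picked. Without either KD lethal array the adjusted p of MS was 0.0583, and without either B4NU array 0.132. It was 0.0577 without the 2 arrays that stand apart, 0.0501 with the replicate number as a block and 0.210 with only the 4 arrays compared. Against B4NU instead of pANDA, the sign turned for MS (-0.13, adjusted p = 0.459) and for ICL (-0.64, adjusted p = 0.462), and Aconitase stood at -0.61 (adjusted p = 0.0559).

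OE against B4NU sets seedlings with extra OsbZIP48 beside the vector taken here as their control. None of the 3 genes was called by limma, beside 1.4% of all probe sets, and none had an unadjusted p under 0.05. The difference was -0.05 ± 0.43 for ICL (95% interval -1.12 to 1.03; adjusted p = 1), 0.01 ± 0.09 for MS (interval -0.21 to 0.23; adjusted p = 1) and 0.28 ± 0.14 for Aconitase (interval -0.07 to 0.63; adjusted p = 0.644). For MS a difference beyond 0.23 in size (log2) lies outside the interval, whereas for ICL changes of up to about 2-fold in either direction lie inside it. Aconitase was higher on both OE arrays than on both B4NU arrays, as were 8.82% of all probe sets. Against pANDA instead of B4NU, OE was higher in all 3, by 2.19 for ICL (adjusted p = 0.0278), 1.06 for MS (adjusted p = 0.00166) and 0.67 for Aconitase (adjusted p = 0.0341). This crosses the normalization sets and uses the pANDA arrays that entered the comparison on which the genes were picked, so these p-values are not independent of that choice. Whether the OE and the knock-down differences differ from each other was not tested.

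Of the 3 genes, ICL and MS differed between the vectors and Aconitase did not pass the test. These p-values use the pANDA arrays, whose low ICL values also entered the comparison on which the genes were picked, so they are not independent of that choice. pANDA was lower than B4NU by 2.24 on the log2 scale in ICL (difference -2.24 ± 0.43, interval -3.31 to -1.17, 4.72-fold, adjusted p = 0.0327) and by 1.05 in MS (difference -1.05 ± 0.09, interval -1.27 to -0.83, 2.07-fold, adjusted p = 0.00209). Aconitase had a difference of -0.39 ± 0.14 that did not pass (interval -0.75 to -0.04; adjusted p = 0.176). Beside them 9.8% of all probe sets were called, 6.95% as lower, and for 47.2% the pANDA arrays lay below the B4NU arrays without overlap. Vector and normalization set cannot be told apart in this comparison. The ICL call was lost without either pANDA array (adjusted p = 0.127 and 0.118), without either B4NU array (0.113 and 0.152), without either of the KD wild-type-like pair (0.0595), with quantile normalization (0.106) and with the replicate number as a block (0.0691), while the MS call held in each of these fits. The plot of differences by comparison shows that ICL and MS in KD wild-type-like and OE seedlings sit near B4NU and above pANDA, and that the sign or size of their difference changed with the vector.

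**Figure D2:**
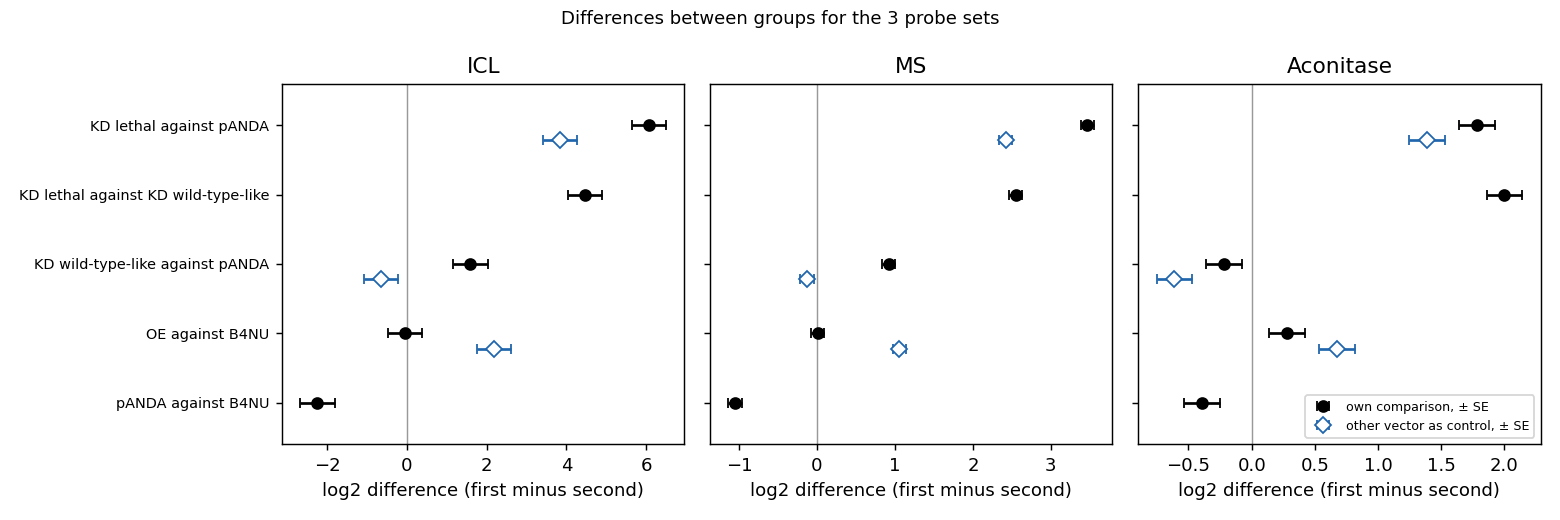
Log2 difference (first group minus second, ± SE) of ICL, MS and Aconitase in 5 comparisons, with black circles for the comparison named on the axis and open diamonds for the same group against the other vector. Each panel has its own scale. KD lethal stays above 0 against either vector, at 6.07 and 3.83 for ICL, whereas KD wild-type-like lies at 1.60 against pANDA and at -0.64 against B4NU.

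Genes of the steps around the cycle were taken from 5 lists matched by gene name, with 30 genes in all. The lists were chosen with earlier results of these data known, so the shares called are given as description only. In KD lethal against pANDA, 11 of the 30 were called, 7 higher and 4 lower, which is 36.7% beside 12.2% of all probe sets (6.83% higher and 5.4% lower). Between 65.7% and 68.9% of an array's values lay within 0.5 of the lowest value, so the background holds many probe sets with little signal. With the 21780 probe sets that rose above the floor in some group, 16 of the 28 pathway genes kept were called (57.1%), beside 42.2% of the probe sets kept. In KD lethal against KD wild-type-like, 10 were called, 5 higher and 5 lower, beside 11.2% (6.48% higher and 4.72% lower). With the same 21780 probe sets, 16 of the 28 were called here too (57.1%), beside 39.5% of the probe sets kept. In KD wild-type-like against pANDA limma called 0 of 30, beside 0.243% of all probe sets. In OE against B4NU it called 1, lower, beside 1.07% of all probe sets called lower. In pANDA against B4NU it called 3 (10%), beside 9.8% of all probe sets. Of these 3, 1 was higher and 2 lower, beside 2.84% and 6.95% of all probe sets, and 1 of the lower, FBA2, had both groups at the floor. The median difference over all probe sets was within 0.01 of 0 in each comparison. Because most values lay near the lowest, it is no fair reference for the list medians given below.

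Fatty acid breakdown, which supplies the cycle with acetyl-CoA, was represented by 1 matched gene, MFP (LOC4328997), the multifunctional protein of peroxisomal beta-oxidation. MFP had 9.77 and 10.28 on the KD lethal arrays, 8.01 and 8.03 in KD wild-type-like, 7.69 and 7.66 in pANDA, 8.54 and 9.40 in OE, and 8.58 and 8.54 in B4NU. The KD lethal arrays were above all others. It rose 5.10-fold in KD lethal against pANDA (2.35 ± 0.30, log2, SE; adjusted p = 0.00713) and by 2.00 against KD wild-type-like (adjusted p = 0.0130). Against B4NU it rose 2.76-fold in KD lethal (adjusted p = 0.0264). Both calls were lost with only the 4 arrays compared, and that against KD wild-type-like also without KD lethal replicate 2 or either KD wild-type-like array.

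Succinate, a product of isocitrate lyase, is oxidized by succinate dehydrogenase in the citric acid cycle, where succinyl-CoA ligase also releases it. Of 10 genes for these enzymes (8 for succinate dehydrogenase subunits and 2 for succinyl-CoA ligase), 2 rose and 0 fell in KD lethal against pANDA, with a median of 0.59. SDH1 (LOC4342350), a succinate dehydrogenase subunit gene, had 10.02 and 10.28 on the KD lethal arrays, 8.67 and 8.07 in KD wild-type-like, 8.17 and 8.30 in pANDA, 10.11 and 10.00 in OE, and 8.81 and 8.87 in B4NU. SDH1 was thus high in OE seedlings too, where ICL was not. It rose 3.76-fold in KD lethal (1.91 ± 0.20; adjusted p = 0.00386), 2.47-fold against B4NU, and had a difference of 1.21 ± 0.20 in OE that did not pass (adjusted p = 0.0753). SDH4 rose 1.93-fold in KD lethal (adjusted p = 0.0387), and this call was lost when any single array other than KD lethal replicate 1 was left out, and against B4NU (0.62, adjusted p = 0.105). SDH2-1 was represented by a probe set that was not called (1.67, adjusted p = 0.169), while another of its probe sets rose by 1.79 (adjusted p = 0.0451). In OE limma called none of the 10, with a median difference of 0.48.

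Of 7 genes listed under gluconeogenesis, the route from organic acids to sugar, 1 rose, 1 fell and 5 were not called in KD lethal against pANDA (median 0.09). None of the 7 encodes phosphoenolpyruvate carboxykinase, which the list was also meant to hold. PPDK1 (LOC4338750), a pyruvate phosphate dikinase gene, rose 2.33-fold (adjusted p = 0.0297), a call lost without either KD lethal, either pANDA or either B4NU array, with the replicate block, with only the 4 arrays compared and against B4NU (0.72, adjusted p = 0.109). CFBP1 (LOC4325071), the cytosolic fructose-1,6-bisphosphatase gene, had 3.01 and 3.83 on the KD lethal arrays, 6.90 and 6.61 in KD wild-type-like, 5.94 and 5.81 in pANDA, 6.92 and 6.43 in OE, and 6.86 and 7.06 in B4NU. It fell 5.49-fold in KD lethal against pANDA (adjusted p = 0.00662) and 11.6-fold against B4NU (adjusted p = 0.00146). Its direction was thus opposite to that of ICL. A second, dimmer CFBP1 probe set had a difference of -0.43 that did not pass (adjusted p = 0.590). The cytosolic aldolase gene FBA1 had a difference of 1.08 ± 0.25 against pANDA (adjusted p = 0.0507) and rose 3.34-fold against KD wild-type-like (adjusted p = 0.0110), a call lost without KD wild-type-like replicate 2.

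The 3 matched PEX11 genes, whose products act in the growth and division of peroxisomes, the organelle that houses isocitrate lyase and malate synthase, did not move one way. PEX11-1 (LOC4331408) had 7.74 and 7.88 on the KD lethal arrays, 10.29 and 10.16 in KD wild-type-like, 9.84 and 9.90 in pANDA, 9.03 and 9.25 in OE, and 10.19 and 10.23 in B4NU. It fell 4.19-fold in KD lethal against pANDA (adjusted p = 0.000239) and 2.10-fold in OE against B4NU (adjusted p = 0.0101), where ICL and MS were not called. The OE call was lost with quantile normalization, with array weights and with only the 4 arrays compared. PEX11-4 (LOC4336511), at the floor in KD lethal with 2.64 and 2.63, fell at least 13.0-fold from pANDA, which had 6.21 and 6.45 (adjusted p = 0.000602). PEX11-5 (LOC4339973) rose 3.46-fold in KD lethal (adjusted p = 0.0142) and 2.29-fold against B4NU (adjusted p = 0.0413), the first being a call lost without KD lethal replicate 1 or either pANDA array.

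Of 9 genes linked to sugar starvation and leaf senescence, 2 rose, 1 fell and 6 were not called in KD lethal against pANDA (median 0.40). AMY1A (LOC4330832), an alpha-amylase gene known from starch breakdown in germinating grain, had 11.84 and 11.60 on the KD lethal arrays, 8.50 and 8.66 in KD wild-type-like, 8.77 and 8.86 in pANDA, 11.17 and 12.02 in OE, and 11.21 and 11.21 in B4NU. Its levels therefore parted pANDA from B4NU, as those of ICL and MS did, with pANDA 5.27-fold lower (adjusted p = 0.00590). Unlike ICL and MS, AMY1A lay below both pANDA arrays in KD wild-type-like, so the likeness holds for the vectors only. AMY1A rose 7.50-fold in KD lethal against pANDA (adjusted p = 0.00241), and the call was lost against B4NU (0.51, 1.42-fold, adjusted p = 0.301), which crosses the normalization sets. Against KD wild-type-like, of the same set, AMY1A rose 8.80-fold in KD lethal (limma's adjusted p = 0.00199). AMY3E (LOC4345812), a further alpha-amylase gene, fell at least 8.51-fold in KD lethal, where it was at the floor. AMY3D (LOC4345814), an alpha-amylase gene known for its induction when sugar is short, had 3.68 and 3.56 on the KD lethal arrays, 4.26 and 4.56 in KD wild-type-like, and 3.68 and 3.44 in pANDA, and was not called against pANDA (adjusted p = 1). Against KD wild-type-like it fell by 0.79 on the log2 scale in KD lethal (adjusted p = 0.0151), a call lost without KD lethal replicate 2. In pANDA it was higher than in B4NU by 0.64 (adjusted p = 0.0336), a call lost without either KD lethal array, either B4NU array or pANDA replicate 1.

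Genes of chlorophyll breakdown, a part of leaf senescence, gave mixed values. In KD lethal against pANDA, NOL (LOC4333604) had a difference of -1.39 ± 0.40 that limma did not call (adjusted p = 0.103). RCCR1 (LOC4348519) had one of 0.59 ± 0.36, also not called (adjusted p = 0.513). NYC1 (LOC4327178), a chlorophyll b reductase gene, rose 2.57-fold in KD lethal against pANDA (adjusted p = 0.0385), and the call was lost against B4NU (0.46, 1.37-fold, adjusted p = 0.386), against both vectors, with the replicate block and when any single array of the KD lethal, KD wild-type-like, pANDA or B4NU groups was left out. SGR (LOC4347672), the stay-green gene, had 2 probe sets that disagreed in size. The brighter had a difference of 1.25 ± 0.72 in KD lethal (adjusted p = 0.509), and the other, at 8.35 in KD lethal and 4.34 in pANDA, rose by 4.01 (adjusted p = 0.0268).

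**Figure D3:**
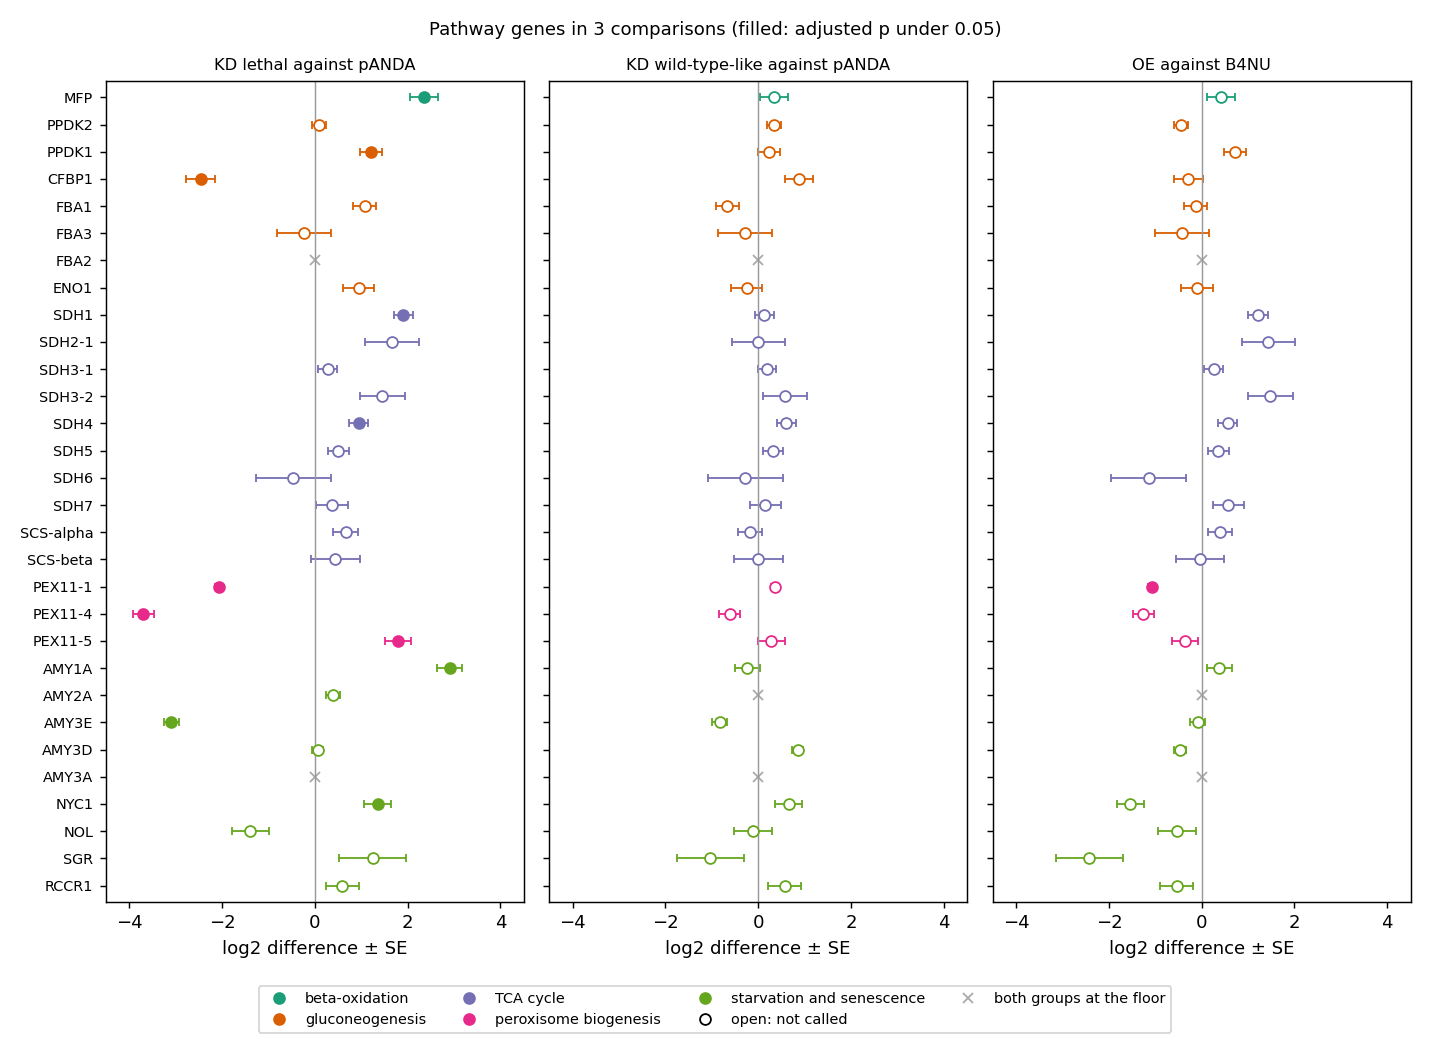
Log2 difference ± SE of the 30 pathway genes in KD lethal against pANDA, KD wild-type-like against pANDA and OE against B4NU, coloured by list, with filled circles for adjusted p under 0.05, open circles for genes not called and crosses for genes at the floor in both groups. The 11 filled circles of KD lethal lie on both sides of 0, OE has 1 (PEX11-1) and KD wild-type-like has 0.

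To find the named genes whose pattern was most like that of ICL, Pearson's r with ICL over the 10 arrays was computed for 3149 probe sets of 2421 genes that have a name. As a description, the 6 highest were CML8 (LOC4348517, r = 0.985), SPPL1 (LOC4348538, 0.979), MKRN (LOC4340884, 0.978), MST3 (LOC4342198, 0.975), NIN1 (LOC4332650, 0.975) and PXG (LOC4336376, 0.972). CML8 encodes a calmodulin-like protein, SPPL1 a signal peptide peptidase-like protein, MKRN a makorin, MST3 a monosaccharide transporter, NIN1 a neutral invertase and PXG a peroxygenase. Over the 6 arrays of the first set r ran between 0.977 (MST3) and 0.998 (PXG).

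PXG came closest to the range of ICL, with 8.96 to 9.74 in KD lethal, 5.29 to 5.68 in KD wild-type-like, 4.38 to 4.47 in pANDA, 5.57 to 5.81 in OE and 5.15 to 5.29 in B4NU. MST3 lay at 10.06 to 10.63 in KD lethal, 7.27 to 7.75 in KD wild-type-like, 7.12 to 7.44 in pANDA, 8.07 to 8.37 in OE and 8.31 to 8.38 in B4NU. NIN1 had the same order of means as ICL, from 6.50 in KD lethal through 5.01 in B4NU, 4.95 in OE and 4.56 in KD wild-type-like to 4.35 in pANDA. All 6 genes had their highest mean in KD lethal and their lowest in pANDA. They were picked for their likeness to ICL on these same arrays, so this order largely follows from the choice. The points share arrays, groups and normalization sets with ICL.

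**Figure D4:**
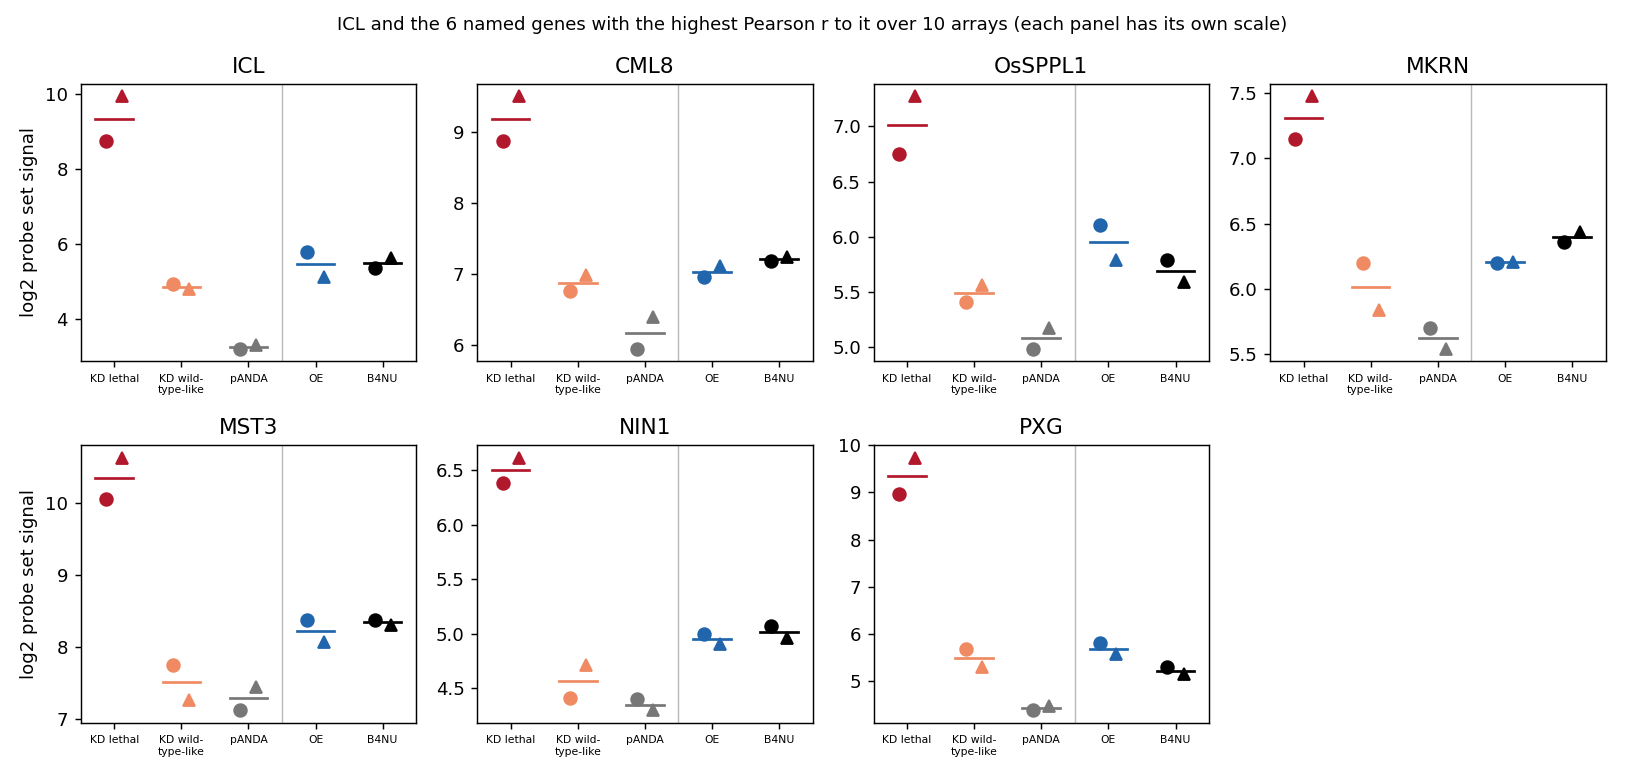
Log2 probe set signal of ICL and of the 6 named genes with the highest Pearson r to it, by group and array (circle, replicate 1; triangle, replicate 2; bar, mean of 2; grey line between the normalization sets). Each panel has its own scale. KD lethal is highest and pANDA lowest in each, with KD lethal means between 6.50 (NIN1) and 10.35 (MST3) for the 6 genes. The genes were picked for likeness to ICL on these arrays, so the shared order largely follows from the choice.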

How the data were processed

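The data are the log2 signals that the authors deposited for 57381 probe sets, with 1 column per array. The tools named in the submitters' processing notes are GCOS and Expression Console (Affymetrix, version 1.4.1.46). How signals were summarized and normalized was not stated there or in the labels. The deposited values were read as log2 from their range. Any 2 arrays shared 16934 to 20119 exactly equal values within the sets named above and 0 between them, so the sets were taken as normalized separately. The number of arrays limits the precision, and nothing in the labels says how separately the biological replicates were grown.

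After 123 controls were left out, 57258 probe sets were tested with limma (version 3.58.1, under R 4.3.3; eBayes after lmFit, no trend, a coefficient per group over all 10 arrays, 5 residual degrees of freedom, two-sided). Calls are at an adjusted p (Benjamini-Hochberg) under 0.05. The fit was tested on simulated data. A gene with several probe sets is represented by that with the highest mean. Folds against a group at the floor are lower bounds from its own mean. The platform annotation gave 22436 probe sets 1 gene, 95 several and 34727 none. Names came from the RefSeq table of assembly ASM3414082v1, and no sequences or coordinates were used.

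The members and lists were chosen with earlier results of these data known. From each list and comparison the called genes with the largest differences are named, up to 3 in each direction, and the 6 genes most like ICL by Pearson's r. SGR, SDH2-1, the check on single markers and genes given as not called were added after their values were seen. No other gene of the cycle itself was matched by name. No label ties a vector to a transgene, so pairing OE with B4NU and the knock-down groups with pANDA was a choice, and the other pairings are among the alternatives.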

Additional observations from a re-analysis of the deposited data

How the results depend on the processing

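Each of the 15 differences (3 genes in 5 comparisons) was recomputed under up to 21 alternatives, giving 297 values, of which 257 kept their direction and call or, in the KD lethal comparisons, stayed within the replicate SD. The KD lethal differences moved only with the vector: for ICL, MS and Aconitase they were 3.83, 2.42 and 1.39 against B4NU and 4.95, 2.94 and 1.59 against both vectors. Most other alternatives could not move them. Fits that changed only the spread, or dropped arrays of other groups, left the means as they were. Dropping 1 array of a compared group shifts a difference by less than the replicate SD. Quantile normalization could move them, and gave 6.11, 3.53 and 1.76 against pANDA. The 257 is therefore no count of independent checks. In KD wild-type-like, MS kept its direction but lost its call with quantile normalization (0.87), with a trend, the replicate block, the filter on low values, the own 4 arrays, the 6 arrays of the set or without the 2 arrays that stand apart (0.92 in each), and against both vectors (0.39), and it lay between 0.84 and 0.99 without single arrays. Against B4NU, ICL (-0.64) and MS (-0.13) turned. In OE, ICL turned with quantile normalization (0.24), pANDA (2.19) and both vectors (1.07) and lay between -0.39 and 0.30 without single arrays. MS turned with median centring (-0.012), lay between -0.076 and 0.094 without single arrays, and was called against pANDA (1.06) and both vectors (0.53), as was Aconitase against pANDA (0.67). Between the vectors, ICL lost its call with quantile normalization (-2.01) and the replicate block (-2.24) and lay between -2.37 and -2.10 without single arrays, and Aconitase was called with array weights and without the 2 arrays that stand apart (-0.39 in both) and lay between -0.48 and -0.31 without single arrays.

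The count of pathway genes called, of 30, was 11 in KD lethal against pANDA (7 with the own 4 arrays, 18 without the 2 arrays that stand apart, 7 to 14 without single arrays). It was 10 against KD wild-type-like (16 with the filter, 3 with the own 4 arrays, 16 without the 2 arrays, 7 to 14 without single arrays) and 0 in KD wild-type-like (4 against B4NU, 4 against both vectors, 2 without the 2 arrays, 0 to 1 without single arrays). It was 1 in OE (3 with quantile normalization, 0 with array weights, 4 with the filter, 0 with the own 4 arrays, 10 against pANDA, 6 against both vectors, 6 without the 2 arrays, 1 to 8 without single arrays) and 3 between the vectors (5, 16, 13 and 8 with quantile normalization, array weights, the own 4 arrays and without the 2 arrays, 2 to 8 without single arrays). The filter kept 21780 probe sets. The causes were not tested. Over all probe sets the count of calls ran from 2786 to 12596 (7000 as reported) in KD lethal against pANDA, 1191 to 12345 (6408) against KD wild-type-like, 20 to 5756 (139) in KD wild-type-like, 17 to 12772 (802) in OE and 2084 to 19322 (5610) between the vectors. Same-numbered replicates did not deviate the same way throughout: of 10 pairs of groups, 2 had a correlation over 0.1 (range -0.573 to 0.31), so the numbers were not taken to pair the samples. That limit counts positive values only, and at -0.573 the replicates of 1 pair of groups deviated in opposite directions. No gene had a second probe set to try.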
